A study of Mus musculus with 18 samples.

Results

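Mitochondrial ribosomal RNA took very different shares of the reads in spinal cord libraries of mice that carry human ATXN2 and TDP-43 alleles, and nuclear genes were compared between libraries with a high and a low share. The share of a library is the sum of its counts for mt-Rnr1 and mt-Rnr2, divided by all its counts. Among the 15 libraries outside the group Q33;TDP-43, 5 had a share of 20% or more and were called high, and 10 had a lower share and were called low. The 3 Q33;TDP-43 libraries were kept apart and set beside the result, which makes 18 libraries in all. The sets were chosen by the counts of mt-Rnr1 and mt-Rnr2 themselves. The shares and both ribosomal RNAs are therefore described here without a test between the sets.

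Every library came from the whole spinal cord of 1 untreated mouse at 10 months of age, with 3 mice in each of 6 groups. Q33;TDP-43 and Q22;TDP-43 mice were heterozygous for a knocked-in human ATXN2 (hATXN2) with a tract of 33 or 22 glutamines and heterozygous for a knocked-in human TDP-43 (hTDP-43). TDP-43 mice carried the hTDP-43 knock-in alone, and Q33 and Q22 mice carried the hATXN2 knock-in alone, also heterozygous. NTg mice were non-transgenic C57BL/6 animals. RNA was depleted of ribosomal RNA before stranded total RNA libraries were made, so the counts measure what was left after depletion, and reads were counted on mouse genes only.

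Mitochondria hold their own small genome, whose transcripts are made as long precursors and cut into ribosomal RNAs, messenger RNAs for subunits of the respiratory chain and transfer RNAs. mt-Rnr1 is the RNA of the small mitochondrial ribosomal subunit and mt-Rnr2 that of the large one. All other proteins of the respiratory chain and of the mitochondrial ribosome are encoded in the nucleus and imported.

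The Q33;TDP-43 libraries had shares of 28.7%, 26.3% and 23.4%, a mean of 26.1% ± 2.70 (SD, n = 3). In the high set the shares were 23.4% in Q33 replicate 2, 20.9% in TDP-43 replicate 2, 20.7% in Q22 replicate 3, 20.1% in Q22 replicate 2 and 20.1% in Q22;TDP-43 replicate 2, a mean of 21.02% ± 1.34 (SD, n = 5). In the low set they ran from 12.7% through a median of 19.3% to 19.8%, a mean of 17.9% ± 2.52 (SD, n = 10). No NTg library was in the high set, and the 3 NTg shares were 14.3%, 19.2% and 19.8%. The threshold passed through a dense part of the range: 10 of the 15 libraries lay between 19% and 21%, 4 lay below and 1 lay above. The lowest share in the high set was 20.08% (Q22;TDP-43 replicate 2, 95% Clopper-Pearson interval 20.06 to 20.10) and the highest in the low set was 19.81% (NTg replicate 3, interval 19.80 to 19.83). Such intervals cover counting error only, since the labels state no molecular identifiers. The lowest Q33;TDP-43 share and that of Q33 replicate 2 differed by less than their intervals.

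**Figure D1:**
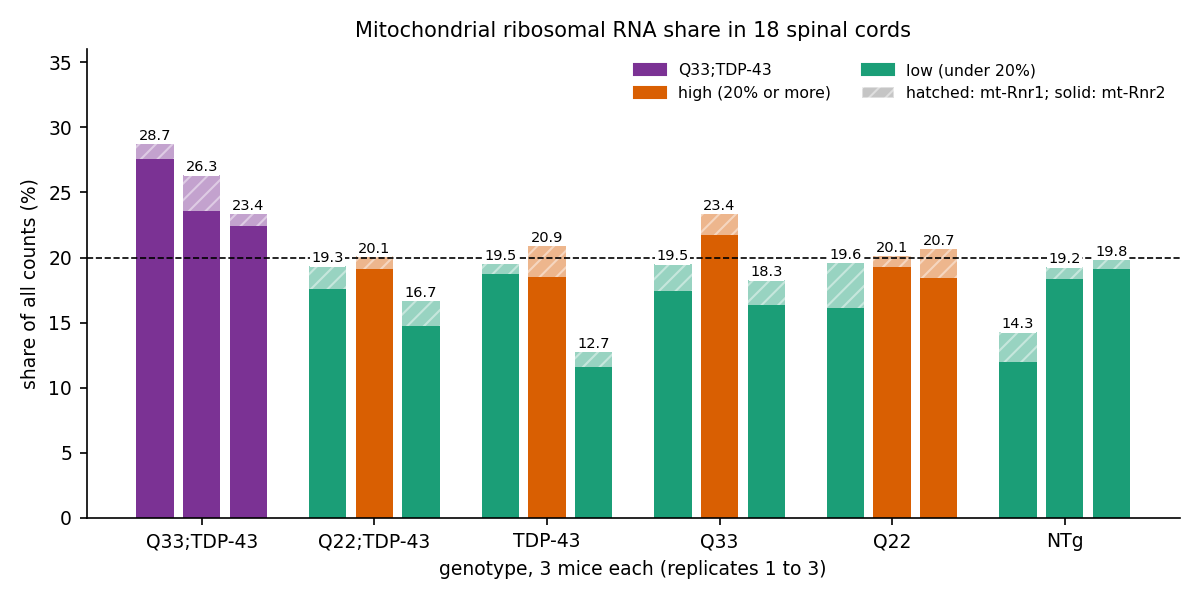
Share of all counts, in percent, taken by mt-Rnr1 and mt-Rnr2 in each of the 18 libraries, by set, with the 20% threshold as a line. The 3 Q33;TDP-43 libraries lie between 23.4% and 28.7%, Q33 replicate 2 is the one high library at that level, and 10 of the other 15 libraries crowd between 19% and 21%.

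mt-Rnr2 (ENSMUSG00000064339.1, chromosome M, 1094 to 2675 in mm10) made up most of the share and mt-Rnr1 (ENSMUSG00000064337.1, chromosome M, 70 to 1024) a small and separate part. mt-Rnr2 took 24.5% ± 2.70 of counts in Q33;TDP-43 (SD, n = 3), 19.4% ± 1.34 in the high set (n = 5) and 16.2% ± 2.67 in the low set (n = 10). mt-Rnr1 took 1.598% ± 0.989 in Q33;TDP-43, 1.63% ± 0.70 in the high set and 1.70% ± 0.851 in the low set, so its mean hardly differed between the sets while single libraries ranged from 0.728% to 3.48%. Q22 replicates 1 and 2 show the separation: replicate 2, in the high set, had 0.895% mt-Rnr1 beside 19.3% mt-Rnr2, and replicate 1, in the low set, had 3.48% beside 16.1%.

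The libraries held 16061359 to 30978678 counts each. Neuronal, motor neuron, astrocyte and myelin markers, the defining genes of spinal cord, were present in all 18: the summed level of 19 neuronal markers ran from 11412 to 21018 CPM (counts scaled to the nuclear total of a library), that of 20 myelin markers from 15538 to 25128 CPM and that of 17 motor neuron markers from 719 to 1613 CPM. Of 7 properties compared between the high and low sets (depth, genes detected, mitochondrial messengers, the share of the 10 most abundant genes, caudal and rostral Hox level and the share of short genes), none passed an exact two-sided permutation test, with adjusted p from 0.507 to 0.948. Y-linked genes summed to 200.1 CPM or more in 1 of 3 Q33;TDP-43, 4 of 5 high and 4 of 10 low libraries, and to at most 3.17 CPM in the others, among them all 3 NTg libraries. Caudal Hox genes, which mark the hind end of the cord, averaged 1.6, 3.90 and 0.94 log2 CPM in Q33;TDP-43. They were also high in Q33 replicate 2 (3.09), Q33 replicate 3 (2.32) and Q22;TDP-43 replicate 1 (3.89), the first of these high and the others low in share. Rostral Hox genes averaged 2.40 to 2.63 log2 CPM in Q33;TDP-43 and 2.66 to 3.04 in the other 15 libraries, without overlap. Rostral level was not added as a term to any fit, and its part in the results was not tested. Caudal Hox level and Y-linked reads were each added as a term to the comparisons of the sets, to the slopes on the ratio and on mt-Rnr1 and to the contrasts of Q33;TDP-43, and their part in the results was not tested otherwise.

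No nuclear gene passed the test between the high and low sets. Counts were scaled to the nuclear total of each library and tested with edgeR's quasi-likelihood test with a term for genotype, and a gene was called at a Benjamini-Hochberg adjusted p under 0.05. Of 21110 genes tested, 0 were called (percent called 0), and the smallest adjusted p was 0.9999. Unadjusted p was under 0.05 for 548 genes (2.6%), of which 271 had higher estimates in the high set (1.28%) and 277 lower (1.31%). The number at that p was 1665 without TDP-43 replicate 2 and 1348 without TDP-43 replicate 1. DESeq2 on the same genes also called 0, with 497 at an unadjusted p under 0.05. The median estimate over all genes was -0.00, and the comparison within genotypes has few libraries to rest on, since NTg lies in the low set alone.

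The genes with the smallest p-values in each direction are given as values, since none passed. Vcam1, an adhesion molecule of activated endothelium, had 20.2 to 22.2 CPM in Q33;TDP-43, 18.6, 21.3 and 23.5 (lowest, median and highest) in the high set and 14.1, 17.2 and 24.7 in the low set. Its log2 difference, high minus low, was 0.39 (SE 0.10), and the sets overlapped. Wdfy1 had 33.6 to 37.2 CPM in Q33;TDP-43, 17.7, 35.8 and 37.2 in the high set and 15.2, 19.9 and 33.5 in the low set. It fell into separate levels that cut across the sets, with Q33 replicate 2 low among the high libraries and TDP-43 replicate 3 high among the low ones, and its estimate turned to -0.42 without the libraries between 19% and 21% and without the genotype term. Tent5c, a poly(A) polymerase, had 4.14 to 6.00 CPM in Q33;TDP-43, 7.83, 9.87 and 11.3 in the high set and 4.37, 8.02 and 9.64 in the low set, so the 3 Q33;TDP-43 libraries lay below every high library. Mmp14, a membrane matrix metalloproteinase, had a log2 difference of 0.32. Among the genes with the smallest p and a lower estimate, Cdh3, P-cadherin, had -0.49, with 0.415 to 1.51 CPM in Q33;TDP-43, 2.0, 3.40 and 4.57 in the high set and 3.46, 4.54 and 7.35 in the low set. The other 4 were Gm37943 (-0.59), 2700016F22Rik (-0.75), Gm15538 (-0.74) and Gm48998 (-0.74), predicted or unnamed transcripts.

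By pathway, no list had a called member, and apart from erythroid and muscle markers the medians of the 38 lists ran from -0.17 to 0.19. Of the 78 genes for cytosolic ribosomal proteins, 6 had an unadjusted p under 0.05, all higher in the high set (among them Rps16, Rps23 and Rpl26), 59 had estimates above 0 and the median was 0.08. The nuclear respiratory chain had medians of 0.04 for complex I, 0.02 for complexes II and III, 0.10 for complex IV and 0.01 for complex V, with 3 of the 77 genes tested at that p (Ndufc1, Ndufs4 and Atp5l), beside 2.6% of all genes. Mitochondrial ribosomal proteins, the partners of the counted RNAs, had 3 of 76 genes at that p and a median of 0.04. Neuronal, synaptic vesicle and motor neuron markers had medians of 0.01, -0.00 and -0.01. Of 22 dorsal horn markers only Maf, a transcription factor, reached that p, with a lower estimate, and the list's median was 0.03.

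Markers of blood, vessels and muscle were checked with their summed levels. Among 7 erythroid genes, Hbb-bs (a beta globin), Alas2 (the erythroid enzyme of haem synthesis) and Slc4a1 (the red cell anion exchanger) had unadjusted p under 0.05, with estimates of 0.83, 0.70 and 1.42, and the list's median was 0.72, beside 2.6% of all genes at that p and a median of -0.00. The erythroid sum was 45.3 to 79.6 CPM in Q33;TDP-43, 70.2 to 309 CPM in the high set and 50.7 to 314 CPM in the low set, with no member at 0 in any library. Of 14 endothelial genes, 4 reached that p (Cldn5, Slc2a1, Ly6c1 and Itm2a), the median was 0.17, and the sum was 681 to 882 CPM in Q33;TDP-43, 636 to 768 CPM in the high set and 452 to 737 CPM in the low set. Of 11 skeletal muscle genes, 9 passed the filter on low counts, with a median of 1.14, and Myh4 and Tnni2 reached that p (2.24 and 1.43). Myh4, a fast muscle myosin, had 5.66 CPM in Q22 replicate 3 and 3.93 CPM in Q33 replicate 2. The muscle sum was 40.7 to 61.5 CPM in Q33;TDP-43, 25.4 to 55.4 CPM in the high set and 24.9 to 56.7 CPM in the low set, with 8, 3 and 7 members at 0 in at least 1 library. The part of blood, vessel and muscle RNA in the differences between the sets was not tested. In bulk tissue, fewer cells of a type and less RNA per cell cannot be told apart.

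A threshold discards the distances between libraries, so each gene was also fitted against the log2 ratio of mitochondrial ribosomal to nuclear counts over the same 15 libraries, with genotype as a term. This slope was added as a result of its own after its p-values had been seen. The ratio and CPM share the nuclear total, and a slope is given per unit of the log2 ratio. Of 21110 genes, 0 were called with edgeR (percent called 0), with a smallest adjusted p of 0.0613. Unadjusted p was under 0.05 for 2272 genes (10.8%), 1309 with a rising estimate (6.2%) and 963 with a falling one (4.56%). The number was 1230 without NTg replicate 1 and 3510 without TDP-43 replicate 2, and DESeq2 called 220, of which 171 had a positive slope. Of the 548 genes at that p between the sets, 234 were at that p with the same sign in the slope (42.7% of the 548 and 10.3% of the 2272), which the shared libraries make possible.

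The genes with the smallest p-values and a positive slope included several with products in mitochondria, ribosomes and the proteasome. Usmg5 (chromosome 19, 47083471 to 47090625 in mm10), a small subunit of the mitochondrial ATP synthase, had 117, 84.6 and 75.9 CPM in Q33;TDP-43, 44.9, 55.6 and 69.5 CPM (lowest, median and highest) in the high set and 31.9, 45.0 and 59.1 CPM in the low set. All Q33;TDP-43 libraries lay above all others, and the highest high library was Q33 replicate 2, whose share matched that of Q33;TDP-43 replicate 3, the lowest of the 3. The slope of Usmg5 over the 15 libraries was 1.12 (SE 0.17). Rps23, a protein of the small cytosolic ribosomal subunit, had 153, 118 and 113 CPM in Q33;TDP-43, 82.8, 101 and 109 CPM in the high set and 61.6, 87.0 and 97.1 CPM in the low set, with a slope of 0.77. Its Q33;TDP-43 libraries also lay above all others. Mpc1, a subunit of the mitochondrial pyruvate carrier, Psmb1, a subunit of the proteasome core, and Omg, a myelin glycoprotein, had slopes of 0.79, 0.75 and 0.69, and the ribosomal Rpl26, Rplp1 and Rpl7a had slopes of 1.10, 0.83 and 0.61. With a negative slope, the smallest p-values included those of Gpr17, a receptor of oligodendrocyte precursors (-0.98), Kcnj9, a neuronal potassium channel (-0.86), Tnrc18 (-0.57) and Zfp462 (-0.51).

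**Figure D2:**
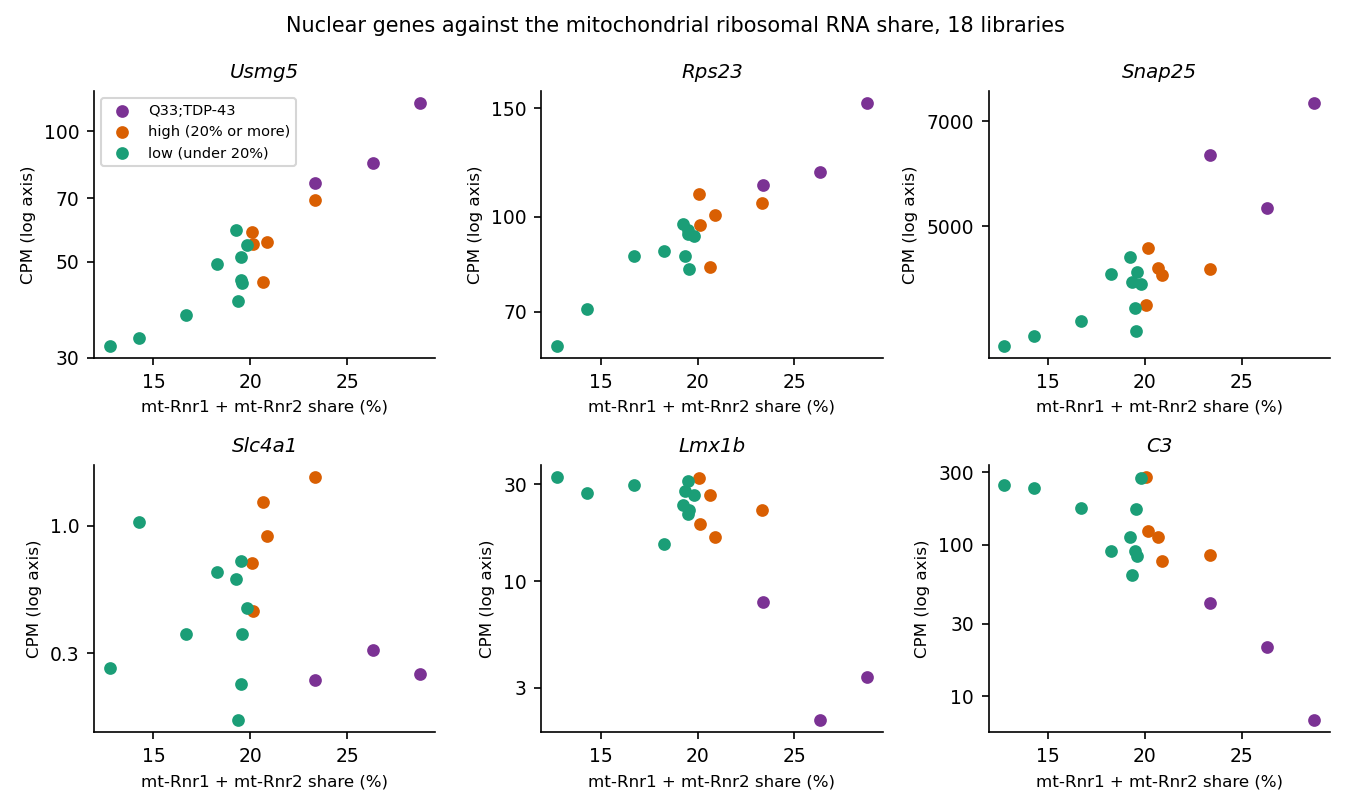
CPM of named genes against the share of mitochondrial ribosomal RNA in percent, 1 point a library, with Q33;TDP-43, high and low libraries in separate colours. The vertical axes are logarithmic. Usmg5, Rps23 and Snap25 are highest in the 3 Q33;TDP-43 libraries at the upper end of the share, Lmx1b and C3 are lowest in them, and Slc4a1 is at 0.233 to 0.311 CPM in them, below every high library.

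Of the 78 genes for cytosolic ribosomal proteins, 35 had an unadjusted p under 0.05, all with a positive slope, against 6.2% of all genes in that direction, and the list's median slope was 0.33 beside 0.01 for all genes. Complex IV, cytochrome oxidase, had 6 of 11 genes at that p and a median of 0.50, complex V had 5 of 15 (0.21), complexes II and III had 4 of 14 (0.20), and complex I had 7 of 37 (0.11). The proteasome had 13 of 31 (0.22) and mitochondrial ribosomal proteins 12 of 76 (0.17). Precursors of oligodendrocytes had 4 of 13 markers at that p with a negative slope and 1 with a positive one (median -0.14). Dorsal horn markers had 1 of 22 at that p, with a negative slope, and a median of 0.02. Of the small nucleolar and Cajal body RNAs, 24 of 182 reached that p with a negative slope and 1 with a positive one. Without NTg replicate 1 and TDP-43 replicate 3, the libraries with the lowest shares, 754 genes were at that p (3.65%). Cytosolic ribosomal proteins then had 15 of 78 at that p and a median of 0.47, complex IV 0 of 11 (0.51), complex V 0 of 15 (0.25), complexes II and III 1 of 14 (0.30), complex I 4 of 37 (0.16), the proteasome 4 of 31 (0.22) and mitochondrial ribosomal proteins 5 of 76 (0.28), all with a positive slope. The median of complex I turned to -0.20 without TDP-43 replicate 2.

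The 2 ribosomal RNAs gave different numbers of called genes. On the log2 ratio of mt-Rnr1 alone to nuclear counts, 1521 genes had a positive and 480 a negative slope at an adjusted p under 0.05 in edgeR's test (7.21% and 2.27% of 21110). On that of mt-Rnr2 alone, 62 and 16 genes did so (0.294% and 0.0758%). Both slopes were added after their counts had been seen. With mt-Rnr2 in the same fit, 1285 genes had a positive and 320 a negative slope on mt-Rnr1 at that threshold (6.09% and 1.52%). Without Q22 replicate 2 the number called on mt-Rnr1 was 889, without NTg replicate 1 it was 995, without Q22 replicate 1 it was 1093 and without TDP-43 replicate 1 it was 1224.

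Several classes of short RNA had members that rose with mt-Rnr1 at an adjusted p under 0.05, beside 7.21% rising and 2.27% falling of all genes tested. Of 182 small nucleolar and Cajal body RNAs, 97 rose and 0 fell, with a median slope of 0.93, and of 20 mitochondrial transfer RNAs, 18 rose and 0 fell, with a median of 1.88. Of 96 small nuclear RNAs, 15 rose and 0 fell, with a median of -0.07. The first 2 classes had medians of -1.04 and -1.87 on the ratio of both ribosomal RNAs together, and -1.40 and -2.42 on that of mt-Rnr2 alone. Snora21, a guide RNA for pseudouridine, had 4.23, 14.7 and 1.98 CPM in Q33;TDP-43, 2.10, 4.57 and 10.0 CPM (lowest, median and highest) in the high set and 1.56, 6.86 and 20.4 CPM in the low set. Its highest value stood in Q22 replicate 1, the library with the most mt-Rnr1, and its lowest in NTg replicate 3, the one with the least. Its slope was 1.68 (SE 0.13), that of Snord70 1.85, that of Scarna13 1.14 and that of Rn7sk, the RNA that holds the elongation factor P-TEFb inactive, 0.69. The share of nuclear counts on genes with under 1000 exon bases also moved with mt-Rnr1. It was 0.979%, 1.298% and 0.805% in Q33;TDP-43, with the highest value in the library with the most mt-Rnr1 of the 3. Among the other libraries it was 1.596% in Q22 replicate 1, the one with the most mt-Rnr1, against 0.824% in NTg replicate 3, 0.811% in NTg replicate 2 and 0.796% in Q22 replicate 2, which are low in it. With a trend on exon length removed, the slope on mt-Rnr1 had 2116 calls, 1548 higher and 568 lower, beside 1521 and 480 in the fit reported. The part of that share of short genes in the slopes was not tested otherwise. Many of these RNAs lie inside introns of other genes, and their part in reads of the host transcripts was not measured.

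Among protein-coding genes 1153 rose and 420 fell with mt-Rnr1, of 15086 tested. Ndufa4, a subunit of cytochrome oxidase first assigned to complex I, had 23.2, 36.8 and 16.01 CPM in Q33;TDP-43, 10.9, 22.7 and 25.98 CPM (lowest, median and highest) in the high set and 11.1, 20.0 and 38.2 CPM in the low set, and its slope was 0.80 (SE 0.05, adjusted p = 2.70e-07). The high and low sets overlapped, and the library with the most mt-Rnr1 again had the highest value. Cox8a of cytochrome oxidase (0.68), Atp5j of the ATP synthase (0.53), the ribosomal Rpl37 and Rps21 (1.03 and 0.99), the mitochondrial Chchd10 (0.55) and Camk2n2, an inhibitor of CaM kinase II (0.60), rose as well. Of 37 complex I genes 23 rose and 0 fell, beside 7.21% rising and 2.27% falling of all genes tested. Of 78 cytosolic ribosomal proteins 27 rose and 2 fell, of 15 complex V genes 7 rose, and of 19 neuronal markers 7 rose. Gmfb, Enpp4 and Mob1a fell, with slopes of -0.30, -0.33 and -0.33. Of 1070 nuclear pseudogenes 126 rose and 11 fell, a class in which copies of mitochondrial sequence share reads with their source and are uncertain.

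**Figure D3:**
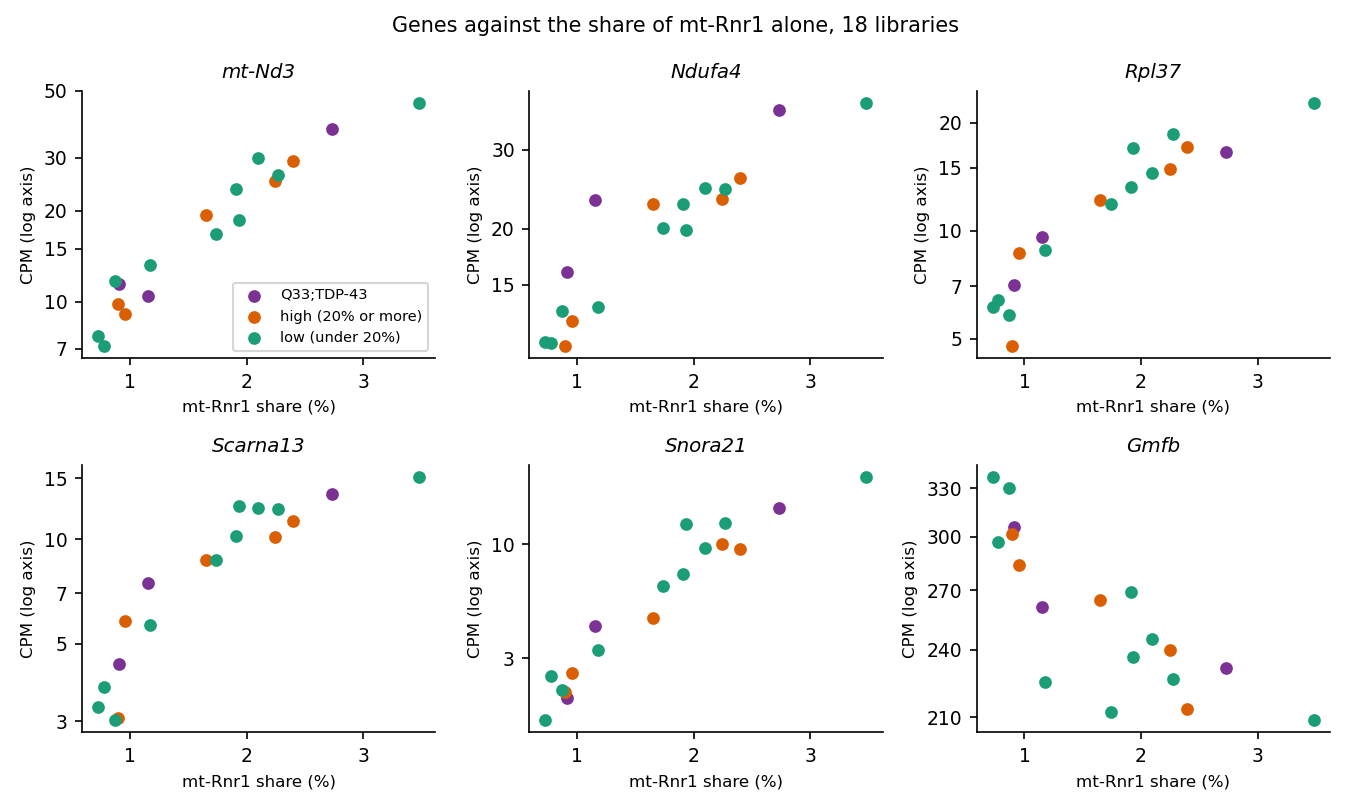
CPM of named genes against the share of counts taken by mt-Rnr1 in percent, 1 point a library, by set, on logarithmic vertical axes. mt-Nd3, Ndufa4, Rpl37, Scarna13 and Snora21 climb with mt-Rnr1 in libraries of all sets, Gmfb falls, and Q22 replicate 1, with 3.48% mt-Rnr1, has the highest value of the first 5.

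Mitochondrial messenger RNAs split between the 2 ribosomal RNAs. Of 13 messengers, 8 rose and 0 fell with mt-Rnr1 (median 0.50), beside 7.21% rising and 2.27% falling of all genes tested. Among the 8 were mt-Nd3 of complex I (1.11, adjusted p = 5.75e-08) and mt-Cytb, cytochrome b (0.56). mt-Co1, the catalytic subunit of cytochrome oxidase, did not pass on mt-Rnr1 (-0.16) and rose with mt-Rnr2 (0.78, adjusted p = 0.0211), the only messenger to do so. It had 25916, 21141 and 22558 CPM in Q33;TDP-43, 14547, 17138 and 19945 CPM (lowest, median and highest) in the high set and 11131, 14833 and 19287 CPM in the low set. All 3 Q33;TDP-43 libraries lay above the others, and the high and low sets overlapped. As a share of nuclear counts, all messengers together averaged 3.42% in the high set and 3.10% in the low set. Over the 15 libraries that share had Pearson's r of 0.711 with the log2 ratio (permutation p = 0.00205, adjusted p = 0.0102 over 5 relations) and Spearman's rho of 0.543 (permutation p = 0.0396, adjusted p = 0.198). Without TDP-43 replicate 3 and NTg replicate 1, the 2 farthest from the median ratio, r was 0.583 and rho was 0.330. The messenger share and the ratio have the nuclear total in common. These correlations were added after the data had been seen and have no genotype term. They do not separate differences between genotypes from those within them.

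Set beside these results, Q33;TDP-43 differed from NTg in many nuclear genes. In a fit of all 18 libraries with a term for each genotype, 1299 genes were higher and 1268 lower in Q33;TDP-43 than in NTg, of 20661 tested (6.29% and 6.14%, together 12.4%). Leaving out Q33;TDP-43 replicate 1, the library with the highest share, left 602 calls, leaving out NTg replicate 3 left 941, leaving out NTg replicate 1 left 1237 and leaving out Q33;TDP-43 replicate 2 left 1512. With caudal Hox level added there were 500 calls, 109 higher and 391 lower, and with Y-linked reads added 2073. On counts scaled to all genes, where the median of all genes was -0.25, the calls split into 208 higher and 3933 lower. Complex I had 17 called members of 37, all higher, complex IV 9 of 11, complex V 11 of 15, the proteasome 15 of 31, glycolysis 11 of 18 and cytosolic ribosomal proteins 22 of 78. With caudal Hox level added, complex I and complex IV had 0 called members, the proteasome 1 and cytosolic ribosomal proteins 3. Their medians in that fit were 0.47, 0.66, 0.44 and 0.41. Of 22 dorsal horn markers 15 were lower and 1 higher (median -1.26), and with caudal Hox level added 12 were lower and 1 higher (median -1.22). Of 15 genes named for this comparison in earlier work on these counts, 13 were called here, beside 12.4% of all genes. Their choice from the same counts favours such calls, so the number is no separate support. Between the high and low sets 0 of the 15 were called or reached an unadjusted p under 0.05, beside 2.6% of all genes at that p. Their estimates there ran from -0.19 for Gfap, the astrocyte filament protein, to 0.32 for Acta2, smooth muscle actin. Atxn2 and Tardbp, the mouse counterparts of the human alleles, had 217 to 263 CPM and 138 to 169 CPM over all 18 libraries, and counts on mouse genes do not check the human alleles.

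**Figure D4:**
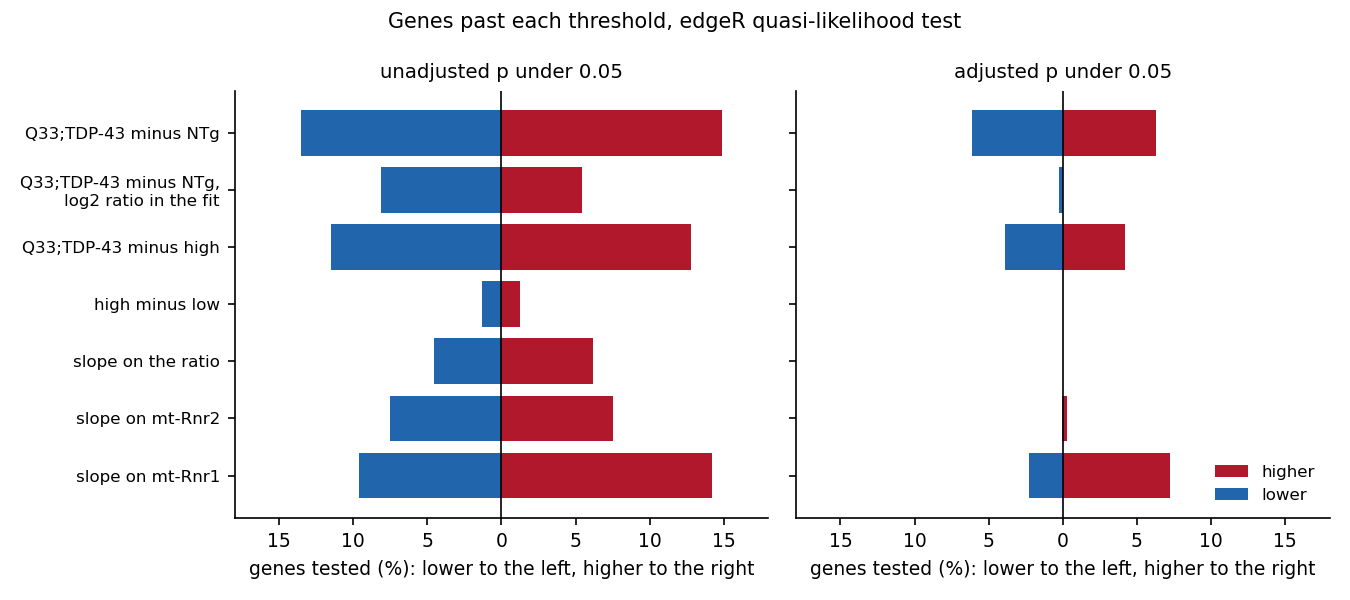
Percent of tested genes past an unadjusted p under 0.05 (left) and an adjusted p under 0.05 (right) in edgeR's test, with higher or rising genes to the right of 0 and lower or falling genes to the left, by comparison. Adjusted calls reach 6.29% higher and 6.14% lower for Q33;TDP-43 against NTg, 0.0047% and 0.244% with the log2 ratio in the fit, and 0 for high against low and for the slope on the ratio.

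Adding the log2 ratio to the fit of Q33;TDP-43 against NTg left 53 calls, 1 higher and 52 lower (0.0047% and 0.244%, together 0.249% of 21270), all of them among the 2567 called without it. The ratio was itself higher in Q33;TDP-43 than in NTg by 0.73 on the log2 scale, so the term and the genotype are tied and the fit has less to tell them apart with: the median SE of the 2567 genes was 0.187 with the ratio and 0.144 without it. Their median absolute log2 difference was 0.44 with the ratio and 0.57 without it, 2058 were smaller in size with it and 1 changed sign. The 2567 were picked by passing without the ratio, which favours smaller estimates and larger SEs in any other fit. Over all genes tested, the median absolute log2 difference was 0.266 with the ratio and 0.262 without it. The median SE over all genes was 0.276 with it and 0.195 without it. At an unadjusted p under 0.05 there were 2875 genes with the ratio (13.5%). Adding the mt-Rnr1 ratio in its place gave 1442 higher and 1461 lower genes (6.78% and 6.87%).

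Usmg5 had an estimate of 0.07 with the ratio and 0.91 without it, Rps23 -0.04 and 0.55, and Rpl7a 0.09 and 0.54. These genes were picked by their slopes on this same ratio in shared libraries, so a smaller estimate with it follows from that choice. Snap25, a protein of synaptic vesicle fusion, had 7428, 5298 and 6275 CPM in Q33;TDP-43, 3881, 4363 and 4655 CPM (lowest, median and highest) in the high set and 3404, 4001 and 4524 CPM in the low set, with estimates of 0.37 (adjusted p = 0.293) with the ratio and 0.63 without it. All 3 Q33;TDP-43 libraries lay above all others, and Snap25 had been named from these same counts, which favours such a gap. Cytosolic ribosomal proteins had a median of 0.11 with the ratio and 0.43 without it, the proteasome 0.19 and 0.45, complex IV 0.31 and 0.71, and glycolysis 0.21 and 0.42. Complex I had 0.47 and 0.61, endothelial markers 0.49 and 0.56, and neuronal markers 0.30 and 0.51, and none of these lists kept a called member with the ratio. Dorsal horn markers had a median of -1.25 with the ratio and -1.26 without it, and 5 members were called lower with it. The difference between lists in how far they shrank was not tested.

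**Figure D5:**
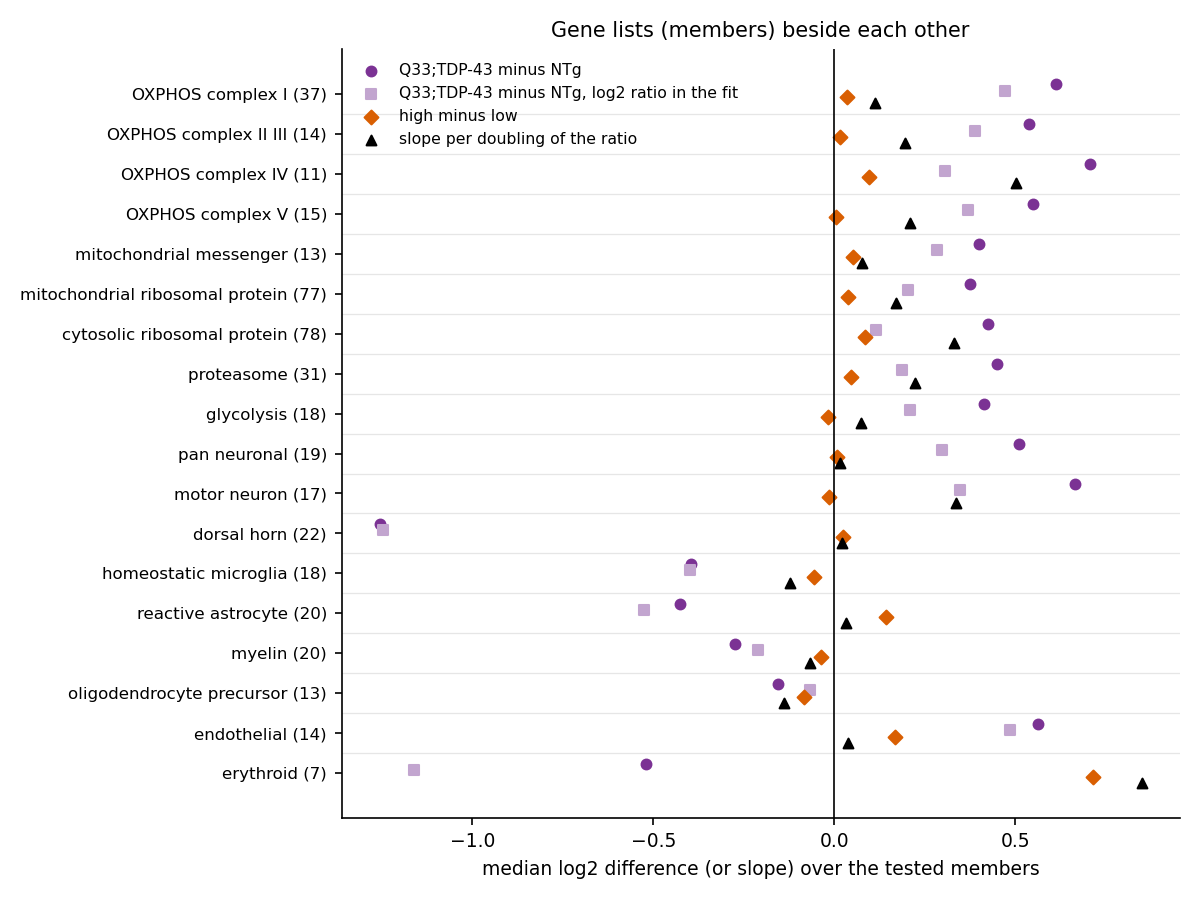
Median log2 difference, or slope per unit of the log2 ratio, over the tested members of each gene list, with the number of members in brackets, a line at 0 and 1 symbol for each of 4 comparisons. Dorsal horn markers stand near -1.25 for Q33;TDP-43 against NTg with and without the log2 ratio and near 0 for high against low, while cytosolic ribosomal proteins and complex IV have positive medians in the slope and smaller medians for Q33;TDP-43 once the ratio is added.

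Of the genes still called with the ratio, those named here were lower in Q33;TDP-43. Their calls come from these same libraries, which favours values apart from the other sets. Necab1, a calcium-binding protein of dorsal horn neurons, had 19.8, 18.8 and 20.5 CPM in Q33;TDP-43, 40.3, 46.7 and 54.9 CPM (lowest, median and highest) in the high set and 30.9, 51.6 and 64.4 CPM in the low set. The 3 Q33;TDP-43 libraries lay below all others, and the high and low sets overlapped. Its log2 difference against NTg was -1.52 with the ratio (SE 0.19, adjusted p = 0.00511) and -1.48 without it. Car12, a membrane carbonic anhydrase, had 0.197, 0.415 and 0.641 CPM in Q33;TDP-43, 3.43, 5.01 and 7.58 CPM in the high set and 1.68, 6.66 and 8.71 CPM in the low set, and its estimates were -4.03 and -4.17. Its lowest Q33;TDP-43 value is near the 0.141 to 0.169 CPM that 3 counts stood for there, so the size of its fall is uncertain. Lmx1b, the transcription factor of excitatory dorsal horn neurons, had 3.40, 2.07 and 7.92 CPM in Q33;TDP-43, 16.6, 22.3 and 32.3 CPM in the high set and 15.2, 27.0 and 32.6 CPM in the low set, with estimates of -2.22 (adjusted p = 0.0273) and -2.56. Both genes were low in every Q33;TDP-43 library and alike in range between the high and low sets. Camk2a, a kinase of excitatory synapses, had -1.43 with the ratio and -1.61 without it, Ebf2 -3.39 and -3.64, the opioid precursor gene Pdyn -1.87 and -1.83, the T-type calcium channel Cacna1g -0.86 and -0.99, and the apelin receptor Aplnr -4.32 and -4.83. C3, the central complement component, was called without the ratio (-3.19) and missed the threshold with it (-2.44, adjusted p = 0.125), with 6.94, 21.2 and 41.2 CPM in Q33;TDP-43, 78.3, 112 and 280 CPM in the high set and 62.9, 142 and 274 CPM in the low set.

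Q33;TDP-43 also differed from the high libraries, whose shares are nearest to its own. With 3 sets in one fit, 861 genes were higher and 810 lower in Q33;TDP-43 than in the high set, of 20661 tested (4.17% and 3.92%), and 2290 were higher and 1913 lower than in the low set (11.1% and 9.26%). These contrasts carry genotype with them and share the Q33;TDP-43 libraries, and without Q33;TDP-43 replicate 1 the calls against the high set were 83 and those against the low set 1103. Without Q22;TDP-43 replicate 2 the calls against the high set were 638, without Q22 replicate 3 they were 873, without Q33;TDP-43 replicate 2 they were 901 and without Q22 replicate 2 they were 1113. With caudal Hox level added there were 344 calls against the high set, 125 higher and 219 lower, and 2110 against the low set. With Y-linked reads added the numbers were 1551 and 4151. On counts scaled to all genes, where the median of all genes was -0.17, the calls against the high set split into 126 higher and 1841 lower. Dorsal horn markers had 14 of 22 lower and 1 higher than in the high set, with a median of -0.98, and with caudal Hox level added 11 were lower and 0 higher, with a median of -1.03. Of 37 complex I genes 12 were higher (median 0.36), of 78 cytosolic ribosomal proteins 13 were higher (0.27), of 31 proteasome genes 12 (0.36) and of 11 complex IV genes 6 (0.48). With caudal Hox level added, 1 complex I gene, 2 cytosolic ribosomal proteins, 2 proteasome genes and 2 complex IV genes were higher. The medians in that fit were 0.28, 0.23, 0.31 and 0.44.

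The genes with the largest falls against the high set included several that were also called against NTg. Aplnr had 0.345, 0.830 and 0.291 CPM in Q33;TDP-43, 4.38, 6.26 and 17.5 CPM (lowest, median and highest) in the high set and 4.37, 9.79 and 18.9 CPM in the low set, and its log2 difference against the high set was -4.04. Myoc, myocilin, had 0.197, 2.13 and 0.990 CPM in Q33;TDP-43, 9.38, 12.7 and 26.4 CPM in the high set and 8.57, 15.2 and 37.6 CPM in the low set, with a difference of -3.79. In both genes the 3 Q33;TDP-43 libraries lay below all others and the high and low sets overlapped. Both were picked as large called falls in these same libraries, which favours such a gap from the high set. Their lowest Q33;TDP-43 values are not far above the 0.141 to 0.169 CPM that 3 counts stood for there. The size of these falls is therefore uncertain. Car12 had a difference of -3.62 and Ebf2, a transcription factor, one of -3.18. Nmur2, a receptor of neuromedin U, and Nmu, its ligand, were called lower as well, with 0 to 0.524 CPM and 0 to 1.51 CPM in Q33;TDP-43, against 2.21 to 6.53 CPM and 2.56 to 7.33 CPM in the high set, and Nmu was not called with caudal Hox level added. Among the genes called higher, En1, the transcription factor of V1 interneurons, had 13.7, 8.40 and 7.98 CPM in Q33;TDP-43, 3.21, 4.22 and 5.51 CPM in the high set and 2.26, 3.64 and 6.24 CPM in the low set, with a difference of 1.19 against the high set, which missed the threshold with caudal Hox level added (1.06, adjusted p = 0.0617). Opn4, melanopsin, had 1.66 to 2.36 CPM in Q33;TDP-43, 0.176 to 1.05 CPM in the high set and 0.301 to 0.906 CPM in the low set, with a difference of 1.97. Neither gene overlapped between Q33;TDP-43 and the other sets, which their choice by calls in these same libraries favours as well. Of the 7 erythroid genes 2 were lower and 0 higher, with a median of -1.64, and of the 7 muscle genes tested 1 was lower. The sums of both lists stand with the high and low sets, and their part in these differences was not tested. Usmg5 was higher by 0.70 (adjusted p = 0.0216), and Rps23 did not pass (0.37, adjusted p = 0.0777).

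The slope on the ratio and the difference between Q33;TDP-43 and NTg use NTg libraries in common, so they were also computed without any shared library. The slope came from the 12 libraries of the 4 other groups, and the difference from the 6 libraries of Q33;TDP-43 and NTg alone. Over 18990 genes, which are not independent of each other, Pearson's r was 0.214 and Spearman's rho 0.237. In those 6 libraries 4.02% of the genes tested were called higher and 4.45% lower. The 765 higher ones with a slope had a median slope of 0.16, the 846 lower ones had one of -0.19, and all genes had one of 0.00. For high minus low without NTg libraries, r was 0.067 and rho 0.101, and the medians were 0.03 and -0.03.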

How the data were processed

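The authors deposited raw counts per gene for 18 libraries. Per the file headers, paired and stranded reads were aligned with TopHat to mm10 and counted on exons with featureCounts 1.6.1 and GENCODE vM19, and Trim Galore 0.4.1 is named in the submitters' processing notes. Per the labels' protocols, the RNA had an integrity number above 7.5, ribosomal RNA was depleted, and stranded total RNA libraries were read with 100 paired bases in 3 lanes. A symbol was found for 54409 of 54446 identifiers. Strand was used in counting, so overlapping antisense genes are separated, but near-identical copies are not.

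Counts were analysed with edgeR 4.0.16 (limma 3.58.1, R 4.3.3): the library size was the total of nuclear genes, TMM factors (0.957 to 1.05) came from nuclear genes, low genes were removed with filterByExpr, and the quasi-likelihood test was two-sided with Benjamini-Hochberg adjustment over all genes tested. The 2 ribosomal RNAs stayed out of the tests. An SE of these fits was derived from the estimate and its p-value, read as a t statistic, so it depends on that p. High against low and the slopes were fitted on 15 libraries with genotype as a term, Q33;TDP-43 against NTg on 18 libraries with a term per genotype, and Q33;TDP-43 against high and low on 18 libraries with 3 sets. CPM values are scaled to the nuclear total. Depth was 16061359 to 30978678 counts, and 3 counts, the floor, stood for 0.128 to 0.238 CPM. The mice are separate animals per the labels. The fits were tested on simulated data.

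Alternatives were DESeq2 1.42.0, other scalings, no filter, added covariates and left-out libraries. Members and lists were chosen with earlier results of these data known. Named genes were those with the smallest p in high against low (5 a direction, mean of at least 1 CPM in either set, none having passed), the largest called changes against the high set, and list members at an unadjusted p under 0.05. Called genes at 0 in a Q33;TDP-43 library are given without a fold or left out, and some items are not reported here. The genes of the slopes were picked after their values were seen.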

Additional observations from a re-analysis of the deposited data

Results flagged for a closer look

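Of 78 groups of values examined for a sample far from the others, 9 were flagged, and chance flags about 1 group in 20. In the high set, Q33 replicate 2 stood apart in its share of mitochondrial ribosomal RNA (23.4%, next 20.9%), in its mt-Rnr2 share (21.7%, next 19.3%) and in Wdfy1 (17.7 CPM, next 33.1 CPM). The high set was cut by that share, so the rate of chance flags does not apply to the share or to mt-Rnr2. Q22;TDP-43 replicate 2 stood apart there in C3 (280 CPM, next 124 CPM) and in the astrocyte filament gene Gfap (1967 CPM, next 1116 CPM). In the low set, TDP-43 replicate 3 had 33.5 CPM of Wdfy1 (next 22.8 CPM), Q22;TDP-43 replicate 1 had 7.35 CPM of Cdh3 (next 5.11 CPM), Q33 replicate 1 had 7.56% of nuclear counts in its 10 most abundant genes (next 7.04%), and Q22 replicate 1 had 1.596% of nuclear counts in short genes (next 1.21%).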

How the results depend on the processing

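High against low had 0 calls under all alternatives except no filter on low counts, where 128 genes (20 higher, 108 lower) passed, and leaving out a library gave 0 to 0 calls. Leaving out all libraries between 19% and 21% could not be fitted with the genotype term, since it leaves 5 libraries, and without that term it also gave 0 calls (700 at an unadjusted p under 0.05). The slope on the ratio had 0 calls in the fit reported, 15 without the genotype term, 7 with caudal Hox level added, 138 with all-gene totals (5 higher, 133 lower, with the median of all genes at -0.15), 220 with DESeq2 (171 and 49), 153 without a filter (84 and 69), 78 on mt-Rnr2 alone (62 and 16), and 0 to 4 with a library left out, the 4 without Q22;TDP-43 replicate 1. The slope on mt-Rnr1 had 3407 calls without the genotype term, 889 to 2721 with a library left out (without Q22 replicate 2 and without TDP-43 replicate 3), and with nuclear totals it split into 1235 higher and 1086 lower. Q33;TDP-43 against NTg had 4141 calls with all-gene totals (208 higher, 3933 lower, median -0.25), 53 with the log2 ratio added, 500 with caudal Hox level added (109 and 391), 1615 in the 6 libraries alone, and 602 to 3037 with a library left out (without Q33;TDP-43 replicates 1 and 3); with nuclear totals it split into 721 and 1691. Against the high set there were 344 calls with caudal Hox level added (125 and 219) and 83 to 1927 with a library left out, the ends without Q33;TDP-43 replicates 1 and 3; all-gene totals split the calls into 126 and 1841 (median -0.17) and nuclear totals into 402 and 988. Against the low set there were 2110 calls with caudal Hox level added and 1103 to 4140 with a library left out, and all-gene totals gave 505 and 5220. Estimates that changed sign were those of C3 in high against low (-1.15 in those 5 libraries, -0.19 without genotype in all 15, -0.79 as a slope, -0.33 to 0.58 with a library left out), Wdfy1 there (-0.42 in those 5 libraries), Lmx1b there (-0.23 to 0.16), Rpsa there (-0.027 to 0.103) and Rps23 against NTg with the ratio (-0.035). The cause of these shifts was not tested. No paired analysis was possible because the replicate numbers only follow the order of the samples. Low genes, with levels near the 0.128 to 0.238 CPM that 3 counts stand for, and differences within the threshold's dense range of shares are beyond what these libraries resolve.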
